A study of Mus musculus with 18 samples.

Results

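The CCN genes encode secreted matricellular proteins, which bind matrix, growth factors and cell surface receptors without building the matrix themselves. The 5 genes described here are Cyr61, Ctgf, Nov, Wisp1 and Wisp2, named CCN1 to CCN5 in current usage, out of 43309 nuclear genes in the expression table. They were chosen by name. The family was singled out with its expression values in both arms already known, with some members higher and others lower under the inhibitor. Their differences between the arms are therefore given as a description, without a test. The sixth member of the family, Wisp3, is given only for comparison.

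The cells were MC3T3-E1 subclone 4, a clonal line of pre-osteoblasts from mouse calvaria (strain C57BL/6, passage 9). They were cultured for 3 days in osteogenic medium that drives them towards osteoblasts. One arm received 2.5 µM EPZ6438, an inhibitor of EZH2, the enzyme that methylates histone H3 at lysine 27, and the other arm received 0.25% DMSO as vehicle. RNA-seq covered 3 samples per arm. H3K27me3, a repressive mark, and H3K4me3, which marks promoters, were profiled by chromatin immunoprecipitation from 2 samples per mark and arm, of which the authors' merged peak lists were analysed. The labels do not say whether the EPZ6438 arm also held DMSO, or whether replicates came from separate cultures, so the error behind each p-value may be technical. Reads in genes numbered 20023137 to 24140050 per EPZ6438 library and 18807156 to 25365513 per DMSO library.

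CCN proteins are built from up to 4 modules. These resemble an insulin-like growth factor binding domain, a von Willebrand factor type C repeat, a thrombospondin type 1 repeat and a cystine knot, and the product of Wisp2 lacks the last of them. They signal mainly through integrins and heparan sulfate proteoglycans. Cyr61 and Ctgf are classic targets of the Hippo pathway effectors YAP and TAZ, which act through TEAD transcription factors. Ctgf is also a target of TGF-beta, and Wisp1 and Wisp2 were named for their induction by Wnt1. In bone, Nov is known as an antagonist of osteoblast differentiation, whereas Ctgf, Cyr61 and Wisp1 are known to promote the formation of bone or cartilage.

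Promoters are shown for Cyr61, a highly expressed member and YAP target, for its silent relative Wisp3 and for another YAP target, Ankrd1. TEAD sites lie at the centre of what is known of the control of YAP targets. Each line gives the 250 bases before the annotated start site from RefSeq (GRCm38.p6, the assembly of mm10), 5′ to 3′ on the minus strand. Capitals mark the TEAD motif CATTCC on either strand and the TATA motif TATAAA on either strand.
Cyr61, chr3:145649986-145650235: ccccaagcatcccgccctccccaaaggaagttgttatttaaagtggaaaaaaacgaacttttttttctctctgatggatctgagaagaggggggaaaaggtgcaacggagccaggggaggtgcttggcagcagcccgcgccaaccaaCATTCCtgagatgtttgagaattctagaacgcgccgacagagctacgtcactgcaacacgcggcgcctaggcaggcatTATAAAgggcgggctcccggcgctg
Ankrd1, chr19:36119845-36120094: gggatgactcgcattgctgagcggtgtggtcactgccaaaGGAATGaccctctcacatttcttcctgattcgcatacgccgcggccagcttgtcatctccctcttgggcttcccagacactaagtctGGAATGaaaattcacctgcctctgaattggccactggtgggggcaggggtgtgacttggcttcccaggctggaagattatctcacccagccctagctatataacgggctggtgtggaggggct
Wisp3, chr10:39163795-39164044: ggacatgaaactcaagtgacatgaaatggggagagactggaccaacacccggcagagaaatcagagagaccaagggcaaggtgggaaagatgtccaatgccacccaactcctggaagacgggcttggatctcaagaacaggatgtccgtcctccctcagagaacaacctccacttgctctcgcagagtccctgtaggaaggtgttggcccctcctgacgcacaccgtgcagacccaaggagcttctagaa

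Among the family, promoters of Cyr61 and Wisp3 were matched in that table, and those of Ctgf, Nov, Wisp1 and Wisp2 were not matched. The Cyr61 window held a CATTCC that began 103 bases before the start site and a TATAAA that began 25 bases before it. Of all 32851 windows of 300 bases, reaching 250 before to 50 after a start site, 14.7% held the TEAD motif and 13.6% held the TATA motif on either strand. The Ankrd1 window held the TEAD motif as GGAATG at 210 and at 123 bases before the start, and the Wisp3 window held neither motif. None of these TEAD and TATA matches overlapped another of them. Of 14 genes of the YAP and TAZ target list that have a window in the table, 6 held the TEAD motif. The Cyr61 window also held a TGACG, the core of a cyclic AMP response element, on its other strand, and the Wisp3 window held one too, as did 20.8% of all windows on either strand. CAGAC, searched as the SMAD motif, was matched in the Cyr61, Ankrd1 and Wisp3 windows, as in 49.6% of all windows. The CArG box and CTTTGA, searched as the TCF motif, were matched in none of them, against 1.63% and 16.0% of all windows. A match is a string of letters and was not tested as a binding site.

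Cyr61, a secreted ligand of integrins that promotes adhesion and angiogenesis, was among the most abundant transcripts of the family (ENSMUSG00000028195, chr3:145646971-145649985; positions are from the authors' table, mm10). It was at 99.4, 90.6 and 93.5 RPKM in EPZ6438 replicates 1 to 3, against 100.4, 119.6 and 110.6 RPKM in DMSO replicates 1 to 3. RPKM scales reads by gene length and by the library's reads in genes, so levels can be compared between genes. The arms were separated by less than 1 RPKM, between EPZ6438 replicate 1 and DMSO replicate 1. The mean was 94.5 ± 4.50 RPKM in EPZ6438 and 110 ± 9.63 RPKM in DMSO (SD, n = 3 each), a log2 difference of -0.22 (SE 0.09). All log2 differences here are EPZ6438 minus DMSO on the scale of log2(RPKM + 0.1). In bulk RNA, fewer cells of a type and less RNA per cell cannot be told apart.

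Ctgf, which encodes connective tissue growth factor, was the least abundant of the 5 members in both arms and the one with the largest relative excess under EPZ6438 (ENSMUSG00000019997, chr10:24595442-24598683). It was at 12.98, 10.6 and 11.8 RPKM in the EPZ6438 libraries, against 5.70, 6.01 and 5.30 RPKM in the DMSO libraries. Every EPZ6438 library lay above every DMSO library, with a mean of 11.8 ± 1.19 RPKM in EPZ6438 and 5.67 ± 0.353 RPKM in DMSO and a log2 difference of 1.04 (SE 0.11). These levels rested on 676 to 782 reads per EPZ6438 library and 307 to 385 per DMSO library. The table also holds Gm15270, a processed transcript that overlaps Ctgf and was at 0.701 ± 0.102 RPKM in EPZ6438 and 0.420 ± 0.108 RPKM in DMSO. Whether reads were counted by strand is not stated, so reads of the overlap may be shared.

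Nov had the highest level of the family in DMSO and the largest log2 difference in either direction (ENSMUSG00000037362, chr15:54745702-54754039). It was at 52.3, 48.5 and 53.8 RPKM in the EPZ6438 libraries, against 180.9, 190.1 and 183.5 RPKM in the DMSO libraries. The spread within each arm was small beside the gap, at 51.5 ± 2.70 RPKM in EPZ6438 and 185 ± 4.76 RPKM in DMSO (SD, n = 3 each). The log2 difference of -1.84 (SE 0.07) ranked 8 among 14213 tested genes ordered from the most negative. In expression among those genes Nov stood at percentile 92.2 in EPZ6438 and at percentile 98.5 in DMSO.

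Wisp1 (ENSMUSG00000005124, chr15:66891320-66923201) and Wisp2 (ENSMUSG00000027656, chr2:163820861-163833146) differed in opposite directions. Wisp1, a promoter of osteogenic differentiation, was at 22.4, 20.2 and 21.0 RPKM in the EPZ6438 libraries, against 17.1, 15.9 and 14.4 RPKM in the DMSO libraries. The arms did not overlap, at 21.2 ± 1.12 RPKM in EPZ6438 and 15.8 ± 1.32 RPKM in DMSO, a log2 difference of 0.42 (SE 0.09). Wisp2, the member without the cystine knot module, was at 40.0, 45.6 and 38.9 RPKM in the EPZ6438 libraries, against 62.7, 73.7 and 82.6 RPKM in the DMSO libraries. It had the widest relative spread among the DMSO libraries, with a coefficient of variation of 13.7%, against 2.58% for Nov. Its mean was 41.5 ± 3.60 RPKM in EPZ6438 and 73.0 ± 9.98 RPKM in DMSO, a log2 difference of -0.81 (SE 0.12).

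Wisp3 had 0 to 2 reads in each of the 6 libraries, which is under a floor of 3 reads, and was not tested. In all 5 members the ranges of the arms did not overlap. This held for 26.7% of all tested genes. Since the same contrast was in view when the family was chosen, nothing is read from that count.

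**Figure D1:**
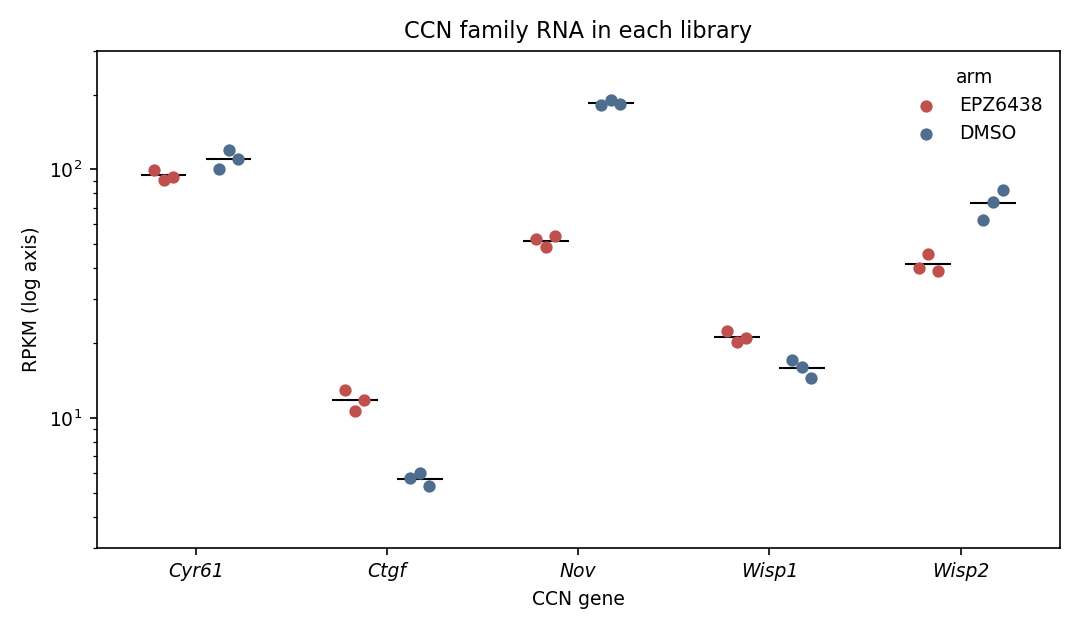
RPKM (log axis) of the 5 CCN genes in each library, with EPZ6438 left of DMSO for every gene, points for libraries and bars for the mean of 3. Ctgf and Wisp1 sit higher in EPZ6438, Nov and Wisp2 lower, and Cyr61 at 94.5 against 110 RPKM is the closest pair in ratio.

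The order of the members changed at its top. Under EPZ6438 it ran Cyr61, Nov, Wisp2, Wisp1 and Ctgf, and the ranges of neighbours did not overlap, with Nov at 48.5 RPKM or more and Wisp2 at 45.6 RPKM or less as the closest pair. In DMSO it ran Nov, Cyr61, Wisp2, Wisp1 and Ctgf, again with no overlap between neighbours.

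The summed level of the 5 members was 227, 216 and 219 RPKM in the EPZ6438 libraries, against 367, 405 and 396 RPKM in the DMSO libraries. The mean sum was 221 ± 5.90 RPKM in EPZ6438 and 390 ± 20.2 RPKM in DMSO. Nov made up 23.4 ± 1.07% of the sum in EPZ6438 and 47.5 ± 1.60% in DMSO. Cyr61 made up 42.8 ± 0.888% in EPZ6438 and 28.3 ± 1.12% in DMSO. The share of Wisp2 was 18.9 ± 2.00% in EPZ6438 and 18.7 ± 1.93% in DMSO, so it kept close to the family total while its level differed. Wisp1 made up 9.59 ± 0.250% in EPZ6438 and 4.08 ± 0.522% in DMSO, and Ctgf 5.34 ± 0.400% in EPZ6438 and 1.46 ± 0.111% in DMSO.

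**Figure D2:**
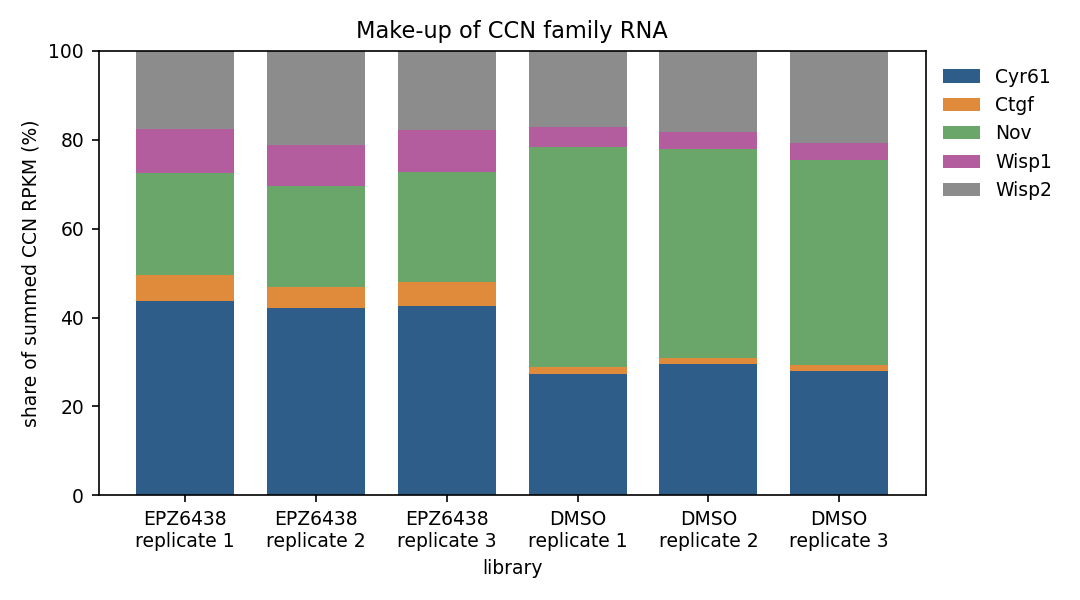
Share of the summed RPKM of the 5 CCN genes taken by each gene (%), one bar per library with the EPZ6438 libraries on the left. Nov takes 22.5 to 24.6% in the EPZ6438 libraries and 46.3 to 49.3% in the DMSO libraries.

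Within an arm the members did not all follow one another. In EPZ6438 replicate 2, Cyr61, Ctgf, Nov and Wisp1 were the lowest of their arm, by 0.06, 0.15, 0.08 and 0.07 on the log2 scale under the arm's mean, while Wisp2 was the highest, by 0.14. In DMSO replicate 1, Cyr61, Nov and Wisp2 were the lowest of their arm, whereas Wisp1 was the highest, by 0.11. With 3 libraries per arm no correlation was computed within an arm. Over all tested genes, no pair of replicates agreed within sampling noise. That measure is a mean over genes, which abundant genes can dominate, and it was not computed for the members alone.

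Genes with profiles most like each member were sought among 12142 other tested genes with a mean of at least 1 RPKM, by the Euclidean distance between centred log2 profiles over the 6 libraries. The libraries fall into arms, so likeness mostly reflects the size of the difference. Nearest to Nov were the cadherin Cdh26 (distance 0.33) and the surface protein genes Ly6f (0.35) and Ly6a (0.39). Cdh26 was at 2.98 ± 0.218 RPKM in EPZ6438 and 11.9 ± 1.72 RPKM in DMSO, and Ly6a at 11.2 ± 1.08 RPKM in EPZ6438 and 33.7 ± 3.22 RPKM in DMSO. Reads of Ly6 genes can be shared between near-identical copies, so their values are uncertain. Nearest to Ctgf were the sialyltransferase St3gal1 (0.15), Mob3b (0.15) and the malic enzyme Me2 (0.15). Nearest to Wisp2 were the immunoproteasome subunit Psmb8 (0.16), the secreted Wnt regulator Sfrp2 (0.17) and the kinase Nuak2 (0.19). Sfrp2 was at 60.8 ± 5.09 RPKM in EPZ6438 and 100.2 ± 13.96 RPKM in DMSO. Nearest to Wisp1 were Mtus1 (0.07), Cab39 (0.08) and Ptgs1, which encodes cyclooxygenase-1 (0.08). Nearest to Cyr61 were Gm20422 (0.05), Epb4.1l4a (0.08) and Spg11 (0.09).

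No H3K27me3 peak of either arm lay over any of the 5 genes. Within the gene plus 10 kb on both sides, the EPZ6438 list held a peak at 0 of the 5 members and the DMSO list at 1 of 5, where 12.0% and 56.9% of tested genes had one. The other 4 members had none in either list, as did 43.0% of tested genes. The 1 peak was 727 bp wide and lay beyond the higher-coordinate end of Wisp2 by 8184 bp, at chr2:163841330-163842056 (mm10). The nearest H3K27me3 peak of the DMSO list lay 27619 bp from Ctgf, 48163 bp from Nov, 54869 bp from Wisp1 and 83628 bp from Cyr61, against a median of 7539 bp over tested genes. The nearest peak of the EPZ6438 list lay 31495 bp from Wisp2, 49582 bp from Nov, 50621 bp from Ctgf, 230199 bp from Wisp1 and 712605 bp from Cyr61, so 3 of 5 members lay nearer than the median of 65218 bp over tested genes. The EPZ6438 list held 20764 H3K27me3 peaks and the DMSO list 143399. The lists give positions only, with no height and no replicates, so a difference between arms could not be tested and the depth behind it is unknown.

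H3K4me3 peaks lay at every member in the EPZ6438 list and at 3 of 5 in the DMSO list, within the gene plus 10 kb. Of tested genes, 77.1% had a peak in the EPZ6438 list and 73.5% in the DMSO list. The lists differed in kind, with 16216 peaks of median width 401 bp in EPZ6438 and 40113 peaks of median width 212 bp in DMSO. Ctgf and Wisp1, whose RNA was higher in EPZ6438, were the members with a peak in the EPZ6438 list alone, a state found in 11.3% of tested genes. The near-silent sixth gene, Wisp3, shared that state, with 1 peak of 234 bp that lay 7695 bp beyond its higher-coordinate end. Cyr61, Nov and Wisp2 had a peak in both lists, as did 65.8% of tested genes, and 0 members had one in the DMSO list alone, as did 7.73%. At Ctgf this was 1 peak of 343 bp at chr10:24595436-24595778, across the lower-coordinate end of the gene. At Wisp1 there were 3 peaks, of 563, 229 and 259 bp, all within the first 2288 bp from the lower-coordinate end. The nearest H3K4me3 peak of the DMSO list was 66626 bp from Ctgf and 45588 bp from Wisp1, although both genes were expressed in DMSO.

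At Nov the EPZ6438 list held 1 peak of 301 bp and the DMSO list 3 peaks with 832 bp in all. The EPZ6438 peak, chr15:54745611-54745911, and the middle peak of the DMSO list, chr15:54745532-54745807, both spanned the lower-coordinate end of the gene. The Cyr61 gene plus 10 kb had more listed sequence in EPZ6438, with 6 peaks and 2494 bp, against 3 peaks and 813 bp in DMSO. Of these, 4 in EPZ6438 and 2 in DMSO lay beyond the higher-coordinate end of Cyr61. The expressed lincRNA gene Gm17501 lies 327 bp from that end, and the lists do not assign these peaks to either gene. No peak of either arm overlapped the 300-base window of the Cyr61 promoter shown above. Peaks stood on both sides of it, with the nearest 36 and 642 bp away in EPZ6438 and 441 and 653 bp away in DMSO. At Wisp2 the EPZ6438 list held 2 peaks with 720 bp, both near the lower-coordinate end, and the DMSO list 2 peaks with 426 bp, of which 1 lay near that end. With peaks of at least 400 bp only, 3 members kept an H3K4me3 peak in the EPZ6438 list (Cyr61, Wisp1 and Wisp2) and 0 in the DMSO list, where 59.8% and 25.9% of tested genes kept one.

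**Figure D3:**
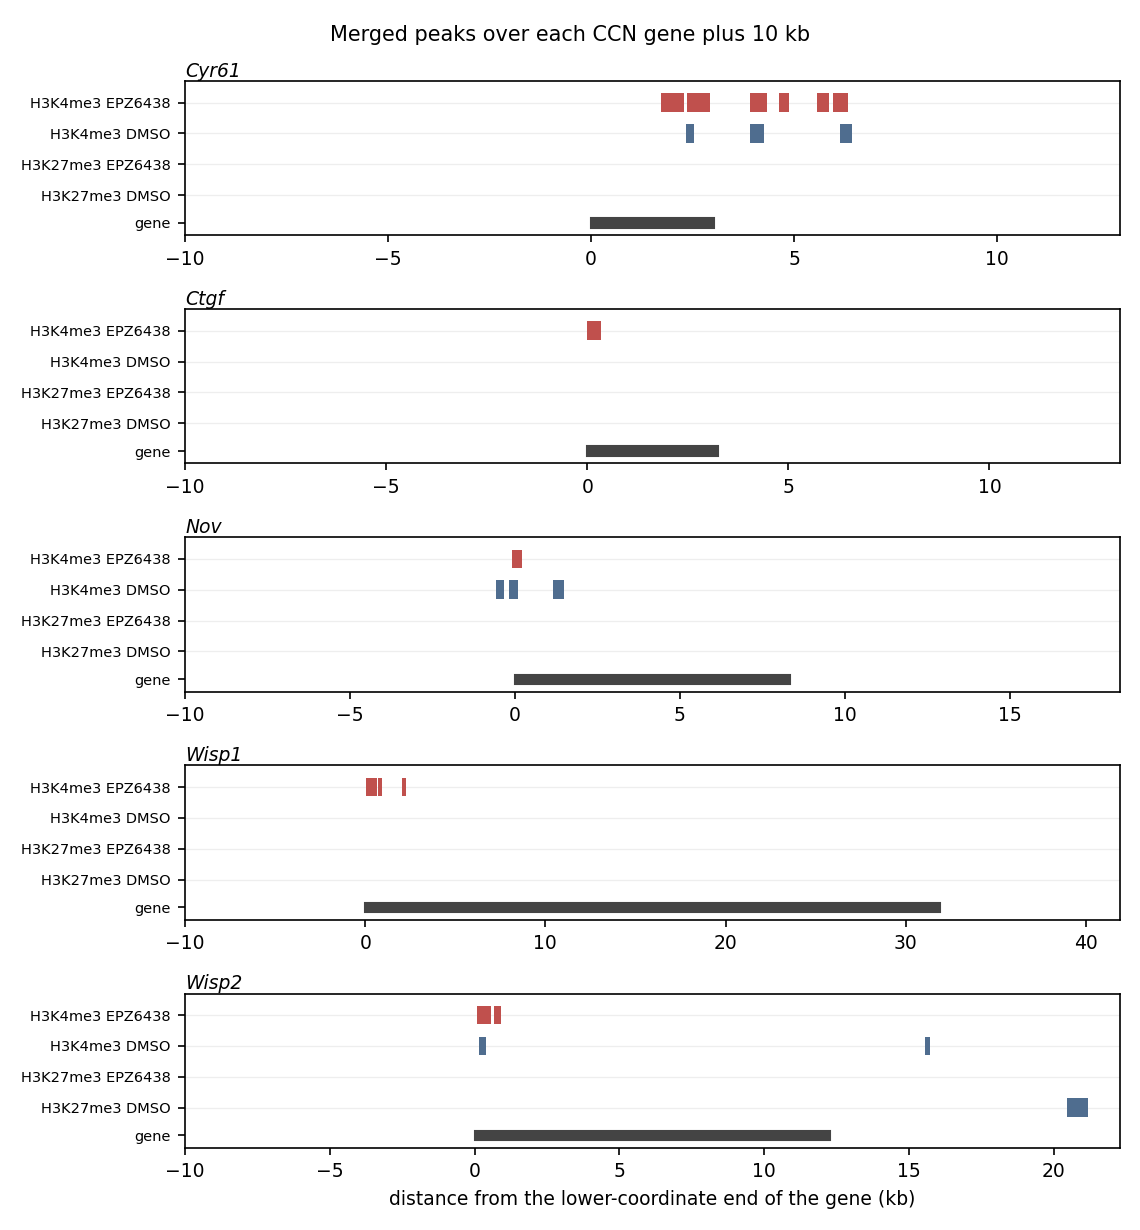
Peaks of the 4 merged lists over each CCN gene plus 10 kb, by distance from the lower-coordinate end of the gene (kb), with EPZ6438 rows above DMSO rows for each mark and the gene as a dark bar. Ctgf and Wisp1 have H3K4me3 peaks in the EPZ6438 row alone, and the 1 H3K27me3 peak lies 8184 bp beyond Wisp2.

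Expressed neighbours of the members were compared next, with the test across all genes. In that test, limma on 14213 genes with Benjamini-Hochberg adjustment, 7.04% of genes passed at an adjusted p under 0.05, 3.8% higher and 3.24% lower in EPZ6438. The nearest expressed genes on each side were Znhit6 and Gm17501 for Cyr61, Stx7 and Med23 for Ctgf, Tnfrsf11b and Enpp2 for Nov, Phf20l1 and Ndrg1 for Wisp1, and Ada and Ywhab for Wisp2. Of these 10 neighbours 1 rose and 1 fell. Tnfrsf11b, which encodes the osteoclast inhibitor osteoprotegerin and lies 467218 bp from Nov, rose to 147 ± 9.28 RPKM in EPZ6438, against 39.7 ± 5.03 RPKM in DMSO (log2 difference 1.89, SE 0.11, adjusted p = 0.000313). Znhit6, 41726 bp from Cyr61, fell to 28.8 ± 1.57 RPKM in EPZ6438, against 40.5 ± 4.03 RPKM in DMSO (log2 difference -0.49, SE 0.09, adjusted p = 0.0263; limma). Gm17501, 327 bp from Cyr61, was at 1.17 ± 0.177 RPKM in EPZ6438 and 1.66 ± 0.183 RPKM in DMSO (limma adjusted p = 0.157). Ndrg1, 6120 bp from Wisp1, was at 8.72 ± 0.549 RPKM in EPZ6438 and 10.0 ± 0.195 RPKM in DMSO (adjusted p = 0.267).

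The regulators named above were examined as lists, read beside a median log2 difference of -0.03 over all tested genes. Of all tested genes, 9.42% were higher and 11.2% lower in EPZ6438 at an unadjusted p under 0.05 by limma, and 4.49% higher and 3.73% lower at an adjusted p under 0.05 by limma's voom on recovered reads. Of 26 tested Hippo pathway and TEAD genes 1 rose, 1 fell and 24 did not pass, with a median of -0.14 (limma; 2 higher and 9 lower at an unadjusted p under 0.05; 1 and 2 by voom). Yap1 was at 11.7 ± 0.496 RPKM in EPZ6438 and 14.3 ± 0.559 RPKM in DMSO (log2 difference -0.29, limma adjusted p = 0.0859). Wwtr1, which encodes TAZ, was at 18.9 ± 1.51 RPKM in EPZ6438 and 20.4 ± 1.32 RPKM in DMSO (adjusted p = 0.586), and Tead1 did not pass either (adjusted p = 0.396). Tead2, a DNA-binding partner of both, rose to 15.7 ± 1.05 RPKM in EPZ6438, against 10.3 ± 1.12 RPKM in DMSO (log2 difference 0.61, SE 0.11, adjusted p = 0.0192). The atypical cadherin Fat4 fell (log2 difference -0.53, adjusted p = 0.0376). The calls of Tead2 and Fat4 ended without single libraries (adjusted p up to 0.107 and 0.178), among them DMSO replicate 2 and each EPZ6438 library.

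Among 19 tested YAP and TAZ targets other than the CCN genes, a list drawn mainly from human cells, 1 rose, 6 fell and 12 did not pass, with a median of -0.13 (limma; 1 higher and 8 lower at an unadjusted p under 0.05; 1 and 6 by voom). Axl, a receptor tyrosine kinase, fell to 23.8 ± 0.228 RPKM in EPZ6438, against 40.2 ± 3.51 RPKM in DMSO (log2 difference -0.75, SE 0.09, limma adjusted p = 0.00342). Ankrd1, the cardiac ankyrin repeat protein gene, was at 5.33, 3.19 and 3.99 RPKM in the EPZ6438 libraries, against 8.13, 8.00 and 8.57 RPKM in the DMSO libraries (log2 difference -0.995, SE 0.18, adjusted p = 0.0213). F3, the tissue factor gene (adjusted p = 0.0240), Myof (0.0243), Rbms3 (0.0438) and Nuak2 (0.0473) also fell. Nt5e, which encodes the surface nucleotidase CD73, rose to 7.65 ± 0.285 RPKM in EPZ6438, against 4.05 ± 0.788 RPKM in DMSO (log2 difference 0.92, adjusted p = 0.0133). The call of Ankrd1 ended without EPZ6438 replicate 3 or DMSO replicate 2 (limma adjusted p up to 0.0957), and with no filter on low reads (0.0512). Those of F3, Myof and Nt5e ended without DMSO replicate 2 or any 1 EPZ6438 library. The calls of Rbms3 and Nuak2 ended without DMSO replicate 2, without any 1 EPZ6438 library and with no filter on low reads, that of Rbms3 also without DMSO replicate 1 and that of Nuak2 also without DMSO replicate 3 (adjusted p up to 0.182 for Rbms3 and 0.189 for Nuak2). The call of Nuak2 further ended with a minimum of 1 RPKM (adjusted p = 0.108), a pseudocount of 0.01 (0.0510) or median-of-ratios scaling (0.0622). The call of Axl held without any 1 library (highest adjusted p = 0.0300). The list kept 1 call without DMSO replicate 2 or EPZ6438 replicate 3, 2 without EPZ6438 replicate 1 or 2, and 4 with no filter on low reads.

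TGF-beta and SMAD targets, the list that shares Ctgf's other known regulator, had 6 genes that rose and 0 that fell among 18 tested, with a median of 0.39 (limma). At an unadjusted p under 0.05, 7 were higher and 2 lower, and voom called 6 higher and 1 lower. Cdkn1a, the cell cycle inhibitor p21 that many other signals also induce, rose to 192 ± 6.69 RPKM in EPZ6438, against 104 ± 3.94 RPKM in DMSO (log2 difference 0.89, SE 0.07, adjusted p = 0.000974). Tgfbi, a matrix protein named for its induction by TGF-beta, rose to 11.8 ± 0.942 RPKM in EPZ6438, against 6.59 ± 0.509 RPKM in DMSO (log2 difference 0.83, SE 0.11, adjusted p = 0.00538). Pmepa1, a feedback inhibitor of the pathway, rose as well (log2 difference 0.84, adjusted p = 0.00925), a call that ended without DMSO replicate 2 (adjusted p = 0.0581). Bhlhe40, a transcription factor gene of the circadian clock, also rose (log2 difference 0.38, adjusted p = 0.0257), with a call that ended without DMSO replicate 2 or any 1 EPZ6438 library. Without DMSO replicate 2 the list kept 2 calls, and 3 without any 1 EPZ6438 library.

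Of 19 tested SRF and MRTF targets, genes of the actin cytoskeleton under a regulator that also acts on Cyr61, 0 rose, 3 fell and 16 did not pass, with a median of -0.07 (limma; 1 higher and 5 lower at an unadjusted p under 0.05; 0 and 4 by voom). Those that fell were Mylk, the myosin light chain kinase gene (log2 difference -0.43, adjusted p = 0.0159), the smooth muscle actin gene Acta2 (-0.47, adjusted p = 0.0229) and the tropomyosin gene Tpm1 (-0.30, adjusted p = 0.0478). The list had 0 calls without DMSO replicate 2 or any 1 EPZ6438 library. Of 9 tested Wnt feedback and target genes 6 rose and 0 fell, with a median of 0.93 (limma; 9 higher and 0 lower at an unadjusted p under 0.05; 8 and 0 by voom), with the lowest adjusted p-values for Tcf7, Apcdd1, Tnfrsf19 and Rnf43 (log2 differences of 1.87, 2.41, 0.93 and 1.40). Wisp1 and Wisp2, both named for Wnt, stood at 0.42 and -0.81 beside them.

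**Figure D4:**
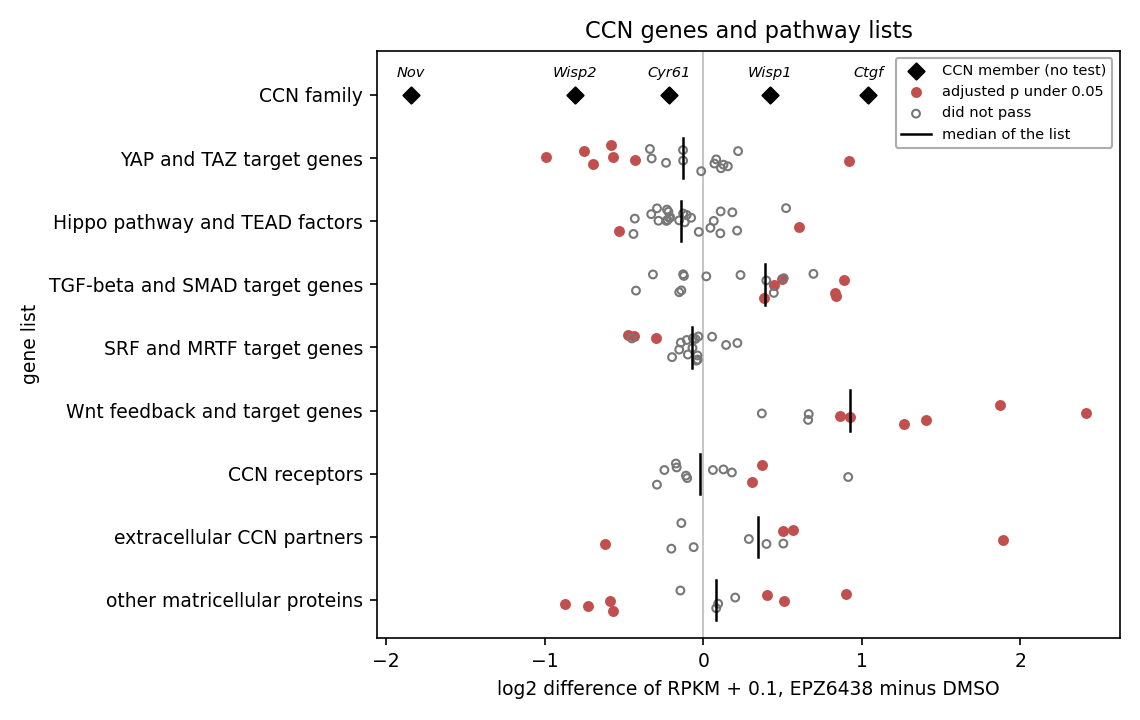
Log2 difference of RPKM + 0.1 (EPZ6438 minus DMSO) of the 5 CCN genes (diamonds, no test) and of tested genes in 8 lists, with filled points for an adjusted p under 0.05 by limma and bars for list medians. The CCN genes spread from -1.84 to 1.04, the YAP and TAZ targets have a median of -0.13 and the Wnt genes a median of 0.93.

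Receptors of CCN proteins came next. Of 12 tested receptor genes 2 rose, 0 fell and 10 did not pass, with a median of -0.02 (limma; 4 higher and 1 lower at an unadjusted p under 0.05; 3 and 0 by voom). Sdc4, the proteoglycan syndecan-4, rose to 60.2 ± 1.04 RPKM in EPZ6438, against 46.7 ± 3.05 RPKM in DMSO (log2 difference 0.37, adjusted p = 0.0316). Igf2r, the receptor for mannose 6-phosphate and IGF2, also rose (log2 difference 0.31, adjusted p = 0.0419). The call of Sdc4 ended without DMSO replicate 2 or 3 or any 1 EPZ6438 library (adjusted p up to 0.156), and that of Igf2r without any 1 library (adjusted p up to 0.196). The integrin genes Itgav, Itga5, Itga6, Itgb1, Itgb3 and Itgb5 did not pass. Itga6 had the largest log2 difference of the list (0.91, limma adjusted p = 0.0898). It was at 0.194 ± 0.0566 RPKM in EPZ6438 and 0.0567 ± 0.0373 RPKM in DMSO, on 6 to 43 reads per library.

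Of 10 tested extracellular partners 3 rose, 1 fell and 6 did not pass, with a median of 0.34 (limma; 5 higher and 2 lower at an unadjusted p under 0.05; 3 and 1 by voom). Besides Tnfrsf11b, the growth factor genes Bmp4 (log2 difference 0.57, limma adjusted p = 0.0298) and Vegfa (0.50, adjusted p = 0.0261) rose, and Dcn, the proteoglycan decorin, fell (-0.62, adjusted p = 0.0471). The call of Tnfrsf11b held without any 1 library (highest adjusted p = 0.00592). It was the 1 call left of the list without DMSO replicate 2 or any 1 EPZ6438 library. With no filter on low reads the calls of Bmp4 and Dcn ended (limma adjusted p = 0.0603 and 0.126). That of Dcn also ended with a minimum of 1 RPKM (0.0581). Of 11 tested other matricellular proteins 3 rose and 4 fell, with a median of 0.08 (limma; 4 higher and 4 lower at an unadjusted p under 0.05; 3 and 4 by voom). Tnc, which encodes tenascin-C, rose to 232 ± 1.25 RPKM in EPZ6438, against 124 ± 4.41 RPKM in DMSO (log2 difference 0.90, adjusted p = 0.000749). Sparcl1 fell (log2 difference -0.59, adjusted p = 0.00549), as did Fbln5, which encodes fibulin-5 (-0.72, adjusted p = 0.00950), and Postn, which encodes periostin (-0.87, adjusted p = 0.0175). The calls of Tnc and Sparcl1 held without any 1 library, and the list kept 2 calls without DMSO replicate 2 or EPZ6438 replicate 3, 3 without EPZ6438 replicate 2 and 4 without EPZ6438 replicate 1.

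Cell identity markers also differed between the arms. Each of 12 osteoblast markers was detected and tested, and 7 rose and 1 fell (median 0.75). Their summed level was 3559 to 4764 RPKM in EPZ6438 and 1924 to 3567 RPKM in DMSO. Most of that sum was Col1a1, at 2383 to 3583 RPKM in EPZ6438 and 1320 to 3039 RPKM in DMSO. Col1a1 did not pass (limma adjusted p = 0.410) and its arms overlapped. Of 6 tested chondrocyte markers 4 rose and 0 fell (limma; 4 higher and 0 lower at an unadjusted p under 0.05 and by voom), with sums of 93.1 to 123 RPKM in EPZ6438 and 19.4 to 29.6 RPKM in DMSO, and Acan was listed at 0. Of 6 tested smooth muscle and myofibroblast markers 1 rose and 1 fell (limma). At an unadjusted p under 0.05, 1 was higher and 3 were lower, and voom called 1 higher and 2 lower. The list had sums of 1841 to 1863 RPKM in EPZ6438 and 2398 to 2544 RPKM in DMSO. Most of these sums was Acta2, at 1510 ± 12.5 RPKM in EPZ6438 and 2097 ± 66.5 RPKM in DMSO. Endothelial, blood cell and adipocyte markers summed to at most 0.118, 1.497 and 3.33 RPKM in EPZ6438 and 0.121, 1.14 and 4.04 RPKM in DMSO, with Cdh5, Kdr, Emcn and Cd3e at 0 reads in every library. The 1 tested marker of each of these 3 lists did not pass (limma; 0 at an unadjusted p under 0.05 and 0 by voom). Counts of the marker lists were not taken without single libraries. The part of these markers in the CCN values was not tested.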

How the data were processed

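Expression was deposited by the authors as RPKM, reads scaled by gene length and by the library's reads in genes, per the file headers. Reads were recovered from RPKM and length (plus 1 base), with 100% coming out whole (tolerance 0.001), and served for the filter and for voom. The 37 mitochondrial genes, at 0 throughout, were left out. Peaks are other values, start and end positions deposited by the authors as 1 merged list per mark and arm, each named as set against input. Per the submitters' processing notes the tools included DiffBind, HOMER, MACS2, Picard, STAR 2.6.1c and Subread, and the build was mm10, with no role stated. Caller thresholds and the way replicates were merged: not given in the sources used here. The replicate numbers of the RNA columns were matched to the labels by name.

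The fit used limma 3.58.1 (trend, empirical Bayes, two-sided) in R 4.3.3 on log2(RPKM + 0.1) of genes that reached 10 reads in 3 or more libraries, which understates the change of low genes, with Benjamini-Hochberg adjustment over all genes tested. The script was tested on simulated data. A peak counted where 1 bp or more lay in the window (Python 3.11.15, pandas 2.3.3, numpy 2.4.6; matplotlib 3.10.9 for figures). No pair of replicates agreed within sampling noise, with a chi-square per gene of 6.47 to 61.7. Floors of 3 reads cover counting error only, since no molecular identifiers are mentioned in the labels.

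Genes were named by rule: the 6 CCN genes, Yap1, Wwtr1 and Tead1, up to 4 passing genes per list by adjusted p, the 3 most alike profiles and the nearest expressed neighbours. The rule was not applied to the cell type marker lists. Myof and Rbms3, the integrins, the markers named and the promoters to show were picked after their values were seen. The members and the 16 lists were chosen with earlier results of these data known. Alternatives were other filters, pseudocounts, scaling, voom, a replicate block, each library left out, other windows, overlaps and peak widths.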

Additional observations from a re-analysis of the deposited data

How the results depend on the processing

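The 5 CCN differences kept their sign and moved by less than the pooled within-arm SD (0.06 for Nov to 0.17 for Wisp2 on the log2 scale) under every pseudocount, under median-of-ratios scaling, voom and the replicate block. At a pseudocount of 1 the difference of Ctgf was 0.94, a shift above its DMSO libraries' own SD but under its pooled SD of 0.12. Without each library in turn they ranged from -0.28 to -0.16 for Cyr61, 0.97 to 1.11 for Ctgf, -1.87 to -1.80 for Nov, 0.36 to 0.48 for Wisp1 and -0.91 to -0.71 for Wisp2. Counts of called genes were less stable. Over all genes 1001 calls became 628 with no filter and ranged from 323 to 978 without single libraries, with 1168 by voom and 1051 with the replicate block. With no filter, 1 Hippo gene, 4 YAP and TAZ targets, 1 SRF target, 0 receptors, 2 partners and 4 matricellular genes passed. Without single libraries the counts ranged over 0 to 3 for Hippo pathway and TEAD factors, 1 to 7 for YAP and TAZ target genes, 2 to 5 for TGF-beta and SMAD target genes, 0 to 4 for SRF and MRTF target genes, 4 to 7 for Wnt feedback and target genes, 0 to 1 for CCN receptors, 1 to 5 for extracellular CCN partners and 2 to 7 for other matricellular proteins. Whether the replicate numbers pair the samples could not be settled, since deviations from a mean of 3 libraries constrain each other. Correlations of same-numbered deviations were 0.41, 0.08 and 0.06, and the 0.41 of replicate 1 was the highest of any pair. EPZ6438 replicate 2 correlated best with DMSO replicate 3 (0.33). The block left 1 receptor call and moved no other count by over 1.5 times, but ended the calls of Fat4, Igf2r, Nuak2, Rbms3 and Tpm1 among the genes named. Members with an H3K27me3 peak numbered 2 in the EPZ6438 list and 3 in the DMSO list within 50 kb (42.6% and 89.8% of tested genes), and 0 in the DMSO list within 1 kb (20.0%). With peaks of at least 400 bp, members with an H3K4me3 peak numbered 3 in EPZ6438 and 0 in DMSO (59.8% and 25.9% of tested genes). The cause of these shifts was not tested. The peak lists carry no depth or replicate error, which limits every comparison of marks.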
